A study of Rattus norvegicus with 12 samples.

Results

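Smad9 and Atoh8 were followed, with 8 other genes of the bone morphogenetic protein (BMP) pathway, in rat astrocytes exposed to PT109B, a compound known here only by this code name. The 10 genes were taken by symbol (Smad1, Smad5, Smad6, Smad7, Smad9, Atoh8, Bambi, Bmp2, Bmp4 and Bmpr1a) from a table of 9721 genes, and all 10 were found and passed the filter on low counts. The cells were wild-type primary midbrain astrocytes of newborn SD rats, grown in DMEM with fetal bovine serum, and the study concerns their conversion to dopaminergic neurons. There were 4 groups of 3 libraries: an untreated control (0 h) and cells with 10 µM PT109B for 1.5, 3 and 6 h. No group is labelled as a vehicle control or as untreated cells at a later time. In the changes against control, the compound, its vehicle and elapsed time can therefore not be told apart. All groups share the serum-containing medium, so the control is a culture in serum as well. Whether replicate libraries stem from separate cultures is not labelled, and the p-values cover the spread among the libraries, which may be technical.

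BMP ligands such as Bmp2 and Bmp4 bind pairs of type I and type II receptors, among them Bmpr1a, at the cell surface. The type I receptor then phosphorylates the receptor-regulated Smads, Smad1, Smad5 and Smad9 (also called Smad8), which join Smad4 and act on transcription in the nucleus. Smad6 and Smad7, the inhibitory Smads, and the decoy receptor Bambi are switched on by the pathway and restrain it, and in the developing brain BMP signalling is known for favouring the astrocyte fate over the neuronal one. Smad9 is both a member of the pathway and one of its transcribed targets, and Atoh8, a basic helix-loop-helix transcription factor, is known as a BMP target in liver and endothelial cells.

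Levels are given as the deposited FPKM (fragments scaled by transcript length and by depth), which can be set side by side between genes. Changes are log2 fold changes of counts ± SE from edgeR's robust quasi-likelihood test, and a gene is said to have risen or fallen where its Benjamini-Hochberg adjusted p, taken over all 9491 genes tested, was below 0.05. The counts, unlike the FPKM, were also scaled between libraries (TMM), so folds read from FPKM differ from these changes. With counts scaled by the depth FPKM implies, changes against control shifted by a median of -0.28 at 3 h and -0.19 at 6 h. Total counts ran between 9368967 and 12498047 per library. Of 12 astrocyte markers 10 were in the table and were detected in every library, Gfap at 533 to 754 FPKM in control and 215 to 877 in treated libraries. The summed FPKM of these 10 was 2035 to 3095 in control and 1942, 1850 and 3152 at 1.5 h. It was 1720, 1857 and 2724 at 3 h and 2049, 1395 and 1592 at 6 h. A treated library stood nearer to the controls than the others of its group at each time, replicate 3 at 1.5 h, replicate 3 at 3 h and replicate 1 at 6 h, with mean correlations to the controls of 0.972, 0.957 and 0.945 against 0.900 to 0.912 for the other 6. Other lists moved with this split. The summed FPKM of 20 microglia markers, all detected, was 280, 285 and 4504 at 1.5 h, against 3530 to 4411 in control. That of 18 mitosis markers was 29.9, 27.2 and 281 at 3 h and 279, 25.6 and 31.8 at 6 h, against 363 to 505 in control.

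Both Smad9 and Atoh8 fell at 3 h and at 6 h, neither was called at 1.5 h, and at 3 and 6 h Atoh8 fell furthest of the 10 genes. Smad6, Smad7 and Bmpr1a fell with them at 3 h and at 6 h, while Bmp2 was higher at both times and Smad1 at 3 h. Of the 10 genes, 7 were called at 3 h, where 21.4% of all tested genes were called, with 2 higher (13.5% of all) and 5 lower (7.94%). At 6 h 6 were called against 30.5% of all tested genes, 1 higher (18.7%) and 5 lower (11.8%). At 1.5 h edgeR called 0 of the 10, where 3.32% of all tested genes were called; 2 (Smad5 and Smad6) had an unadjusted p below 0.05, and DESeq2 and limma-voom also called 0. Between treated times, 6 of the 10 were called at 3 h against 1.5 h, 2 at 6 h against 3 h and 6 at 6 h against 1.5 h, beside 20.3%, 4.05% and 37.6% of all tested genes. These are bulk RNA values, in which fewer cells that express a gene and less of its RNA per cell cannot be told apart.

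The stretches of sequence before the starts of 8 of the 10 genes were at hand. Those of Smad9, which holds the element searched, and of Atoh8, which does not, are printed. They are the 250 bases before the annotated gene start in RefSeq (build GRCr8), written 5′ to 3′ on the strand of the gene, Smad9 at chr2:141106418-141106667 on the plus strand and Atoh8 at chr4:105850380-105850629 on the minus strand. Capitals mark GGCGCC, the GC-rich element known to be bound by Smad1 and Smad5, which reads the same on both strands. The runs from Smad7 and Bambi, which also hold it, are shown for comparison.
Smad9: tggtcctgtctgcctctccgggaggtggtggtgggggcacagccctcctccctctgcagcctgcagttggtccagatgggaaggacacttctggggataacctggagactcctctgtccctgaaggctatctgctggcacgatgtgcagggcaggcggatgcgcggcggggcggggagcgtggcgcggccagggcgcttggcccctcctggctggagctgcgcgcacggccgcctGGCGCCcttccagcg
Atoh8: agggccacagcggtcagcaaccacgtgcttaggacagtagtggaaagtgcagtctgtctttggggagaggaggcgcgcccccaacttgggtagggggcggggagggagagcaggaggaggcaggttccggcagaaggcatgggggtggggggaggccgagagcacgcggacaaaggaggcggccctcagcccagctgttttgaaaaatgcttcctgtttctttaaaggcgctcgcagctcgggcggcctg
Smad7: cagagccagccgGGCGCCtcgctcggtccg
Bambi: cccgacactgacGGCGCCcgggcttatgcg
The element begins 15 bases before the start of Smad9, 74 before that of Bambi, and 96 and 36 before that of Smad7, of which the first is shown. Of 33469 windows of this length, 8.69% hold it, a share not matched for GC content. G and C made up 70%, 78% and 72.4% of the windows of Smad9, Smad7 and Bambi. In the windows without the element they made up 28.4% (Bmpr1a) to 66.4% (Bmp4). The windows of Atoh8, Smad1, Smad5, Bmp4 and Bmpr1a do not have these letters, and no window was found for Smad6 and Bmp2. The short Smad letters GTCT, or AGAC on the other strand, are in 84% of all windows. Of the 3 genes whose window holds GGCGCC, Smad9 and Smad7 fell and Bambi was not called; of the 5 without it, Atoh8 and Bmpr1a fell and Smad1 rose at 3 h. A match is a description of these letters, and binding was not measured.

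**Figure D1:**
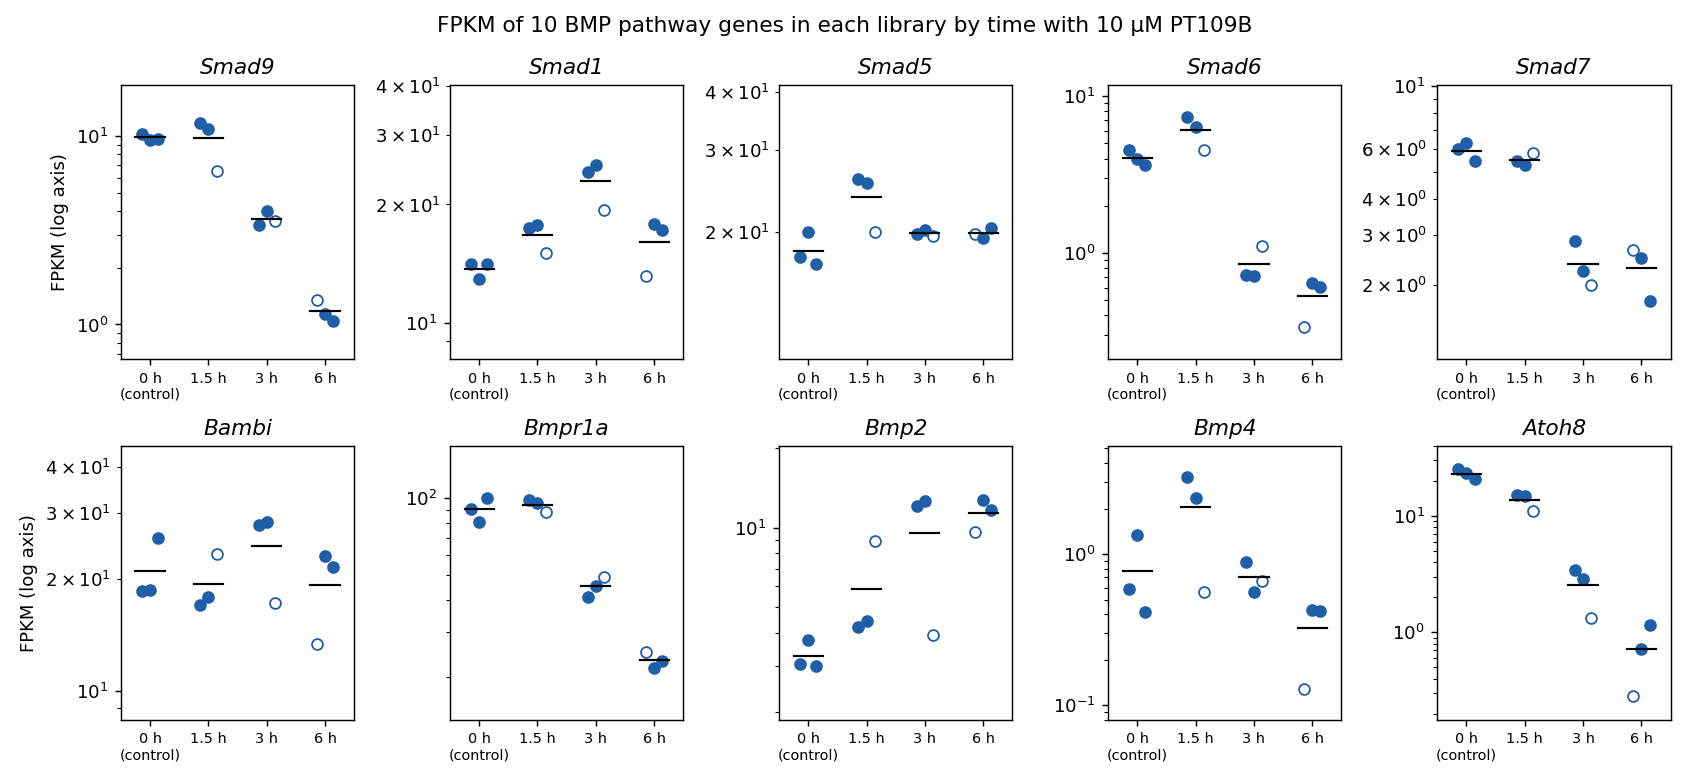
FPKM of the 10 BMP pathway genes (log axis, a separate scale per gene) by time with 10 µM PT109B. Each point is a library, bars are means of 3 libraries, and open points are the treated libraries nearest to the controls; Smad9, Atoh8, Smad6, Smad7 and Bmpr1a lie below every control library at 3 and 6 h, as do 36.9% and 34.3% of all tested genes.

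Of the receptor-regulated Smads, Smad9 (ENSRNOG00000000091) fell and Smad1 and Smad5 did not. Smad9 stood at 10.3, 9.57 and 9.61 FPKM at 0 h, at 11.7, 10.9 and 6.50 at 1.5 h, at 3.37, 3.98 and 3.53 at 3 h and at 1.35, 1.14 and 1.05 at 6 h. Every library at 3 h lay below every library at 0 and 1.5 h, and every library at 6 h below those at 3 h, while at 1.5 h the third replicate lay below the controls and the other 2 above them. Against control the change was 0.055 ± 0.19 at 1.5 h (adjusted p = 0.895), -1.14 ± 0.20 at 3 h (adjusted p = 0.00308) and -2.86 ± 0.21 at 6 h (adjusted p = 2.57e-05), the last a 7.28-fold lower level. By library Smad9 was at 34.3% to 40.5% of the control mean FPKM at 3 h and at 10.7% to 13.7% at 6 h.

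The decline of Smad9 went on between the later times. The log2 fold change at 6 h against 3 h was -1.72 ± 0.20 (adjusted p = 0.00624), a comparison in which 4.05% of all tested genes were called and, of the 10, only Smad9 and Bmpr1a. The library at 3 h that stood nearest to the controls had 281 FPKM of mitosis markers against 29.9 and 27.2 in the other 2, and its Smad9 level, 3.53 FPKM, lay between theirs. With the 3 nearest libraries left out the changes against control were -1.11 at 3 h and -2.99 at 6 h, and with only these 3, 1 library per treated group, the values were -1.38 and -2.80. With the 3 left out Smad9 was also called higher at 1.5 h, in a fit that called 59.2% of all tested genes there.

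Smad1 (ENSRNOG00000018483) stood at 14.1, 12.9 and 14.1 FPKM at 0 h, at 17.4, 17.7 and 15.0 at 1.5 h, at 24.1, 25.2 and 19.4 at 3 h and at 13.2, 17.9 and 17.2 at 6 h. Its level was thus highest at 3 h and overlapped with the controls at 6 h. It rose by 1.04 ± 0.20 at 3 h (adjusted p = 0.00510) and was not called at 1.5 h (0.36 ± 0.20, adjusted p = 0.310) or 6 h (0.44 ± 0.20, adjusted p = 0.108). Without replicate 1 of the 6 h group Smad1 was called at 6 h too, as were 40.5% of all genes tested in that fit, and the value with only that library was -0.0015.

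Smad5 (ENSRNOG00000022870) had 17.6, 19.993 and 17.0 FPKM at 0 h, 25.9, 25.5 and 19.993 at 1.5 h, 19.8, 20.1 and 19.5 at 3 h and 19.8, 19.4 and 20.4 at 6 h. Replicates 1 and 2 at 1.5 h were above all other libraries. Replicate 2 at 3 h and replicate 3 at 6 h lay just above the highest control, and the other treated libraries lay within the controls' range. Its changes were 0.35 ± 0.13 at 1.5 h, 0.26 ± 0.13 at 3 h and 0.19 ± 0.13 at 6 h, none of them called (adjusted p = 0.160, 0.165 and 0.279), with 95% intervals of 0.070 to 0.64, -0.028 to 0.54 and -0.096 to 0.47. Without replicate 3 of the 1.5 h group Smad5 was called higher at 1.5 h, at 0.43; in that fit 30% of all tested genes were called at 1.5 h, beside 3.32% with all libraries.

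Since these 3 Smads share the receptor step, their shares in their summed FPKM were compared. Smad9 made up 23.5% ± 0.96 of the sum at 0 h, 19.0% ± 2.96 at 1.5 h, 7.83% ± 0.63 at 3 h and 3.20% ± 0.64 at 6 h (SD, n = 3 each). Every treated library lay below every control library at each time, which in an exact two-sided permutation test over the libraries gives p = 0.1, the smallest that 3 against 3 allow. The summed FPKM of the 3 Smads was 41.8 ± 0.91 at 0 h, 50.2 ± 7.55 at 1.5 h, 46.4 ± 3.52 at 3 h and 37.1 ± 2.42 at 6 h. Smad1 took 49.3% ± 3.11 of the sum at 3 h, against 32.9% ± 2.21 in control, and Smad5 53.6% ± 3.71 at 6 h, against 43.6% ± 3.01 in control.

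**Figure D2:**
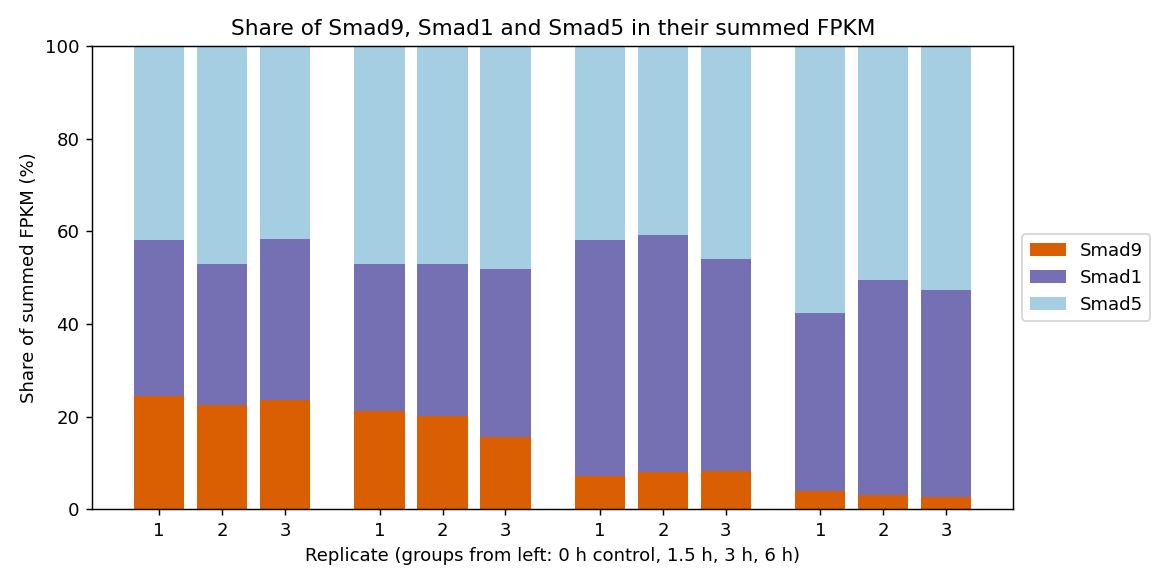
Share of Smad9, Smad1 and Smad5 in their summed FPKM (percent, vertical axis) in each of the 12 libraries, grouped by time. Smad9 takes 22.5% to 24.4% in the control libraries and 2.72% to 3.93% in those at 6 h.

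Atoh8 (ENSRNOG00000010716) was second only to Bmpr1a among the 10 genes in control by mean FPKM, with a range overlapping that of Bambi, and number 8 at 6 h. Its libraries stood at 25.1, 23.3 and 20.6 FPKM at 0 h, at 15.1, 14.8 and 10.9 at 1.5 h, at 3.46, 2.86 and 1.32 at 3 h and at 0.284, 0.725 and 1.16 at 6 h. No library of any time overlapped with those of another, the order running down with time. The change against control was -0.68 ± 0.43 at 1.5 h (adjusted p = 0.377, not called), -2.84 ± 0.47 at 3 h (adjusted p = 0.00255) and -4.78 ± 0.53 at 6 h (adjusted p = 2.23e-04), a 27.5-fold lower level at 6 h. In percent of the control mean FPKM, the libraries were at 47.5% to 65.6% at 1.5 h, 5.72% to 15.1% at 3 h and 1.23% to 5.02% at 6 h.

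At 1.5 h the FPKM of all 3 libraries lay below all controls for Atoh8, as for 20.4% of all tested genes. Without the 3 nearest libraries Atoh8 was called lower there, at -0.56, in a fit that called 59.2% of all tested genes at 1.5 h. With only the nearest library its value was -0.99. In each treated group the lowest Atoh8 level was in the library nearest to the controls, and with only these libraries the change was -4.02 at 3 h and -6.26 at 6 h, against -2.54 and -4.45 without them. Between 3 and 6 h the Atoh8 libraries did not overlap, but the difference of -1.94 ± 0.50 was not called (adjusted p = 0.0570). It fell by 2.16 ± 0.46 on the log2 scale at 3 h against 1.5 h (adjusted p = 0.0139), a call lost without replicate 1 (adjusted p = 0.0510) or replicate 2 (adjusted p = 0.0502) of the 1.5 h group.

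The inhibitory Smads also fell, Smad6 after a level at 1.5 h that lay above the controls but was not called. Smad6 (ENSRNOG00000009173), which competes with the receptor-regulated Smads mainly in the BMP branch, had 4.52, 3.98 and 3.62 FPKM at 0 h, 7.36, 6.37 and 4.53 at 1.5 h, 0.727, 0.709 and 1.11 at 3 h and 0.337, 0.639 and 0.607 at 6 h. All libraries at 1.5 h were above the controls, replicate 3 only just. All at 3 and 6 h were below them, as for 36.9% and 34.3% of all tested genes. The share of all tested genes that lay above every control library is not given here for any time. The Smad6 value at 1.5 h, 0.66 ± 0.27, was not called (adjusted p = 0.204), and the changes at 3 and 6 h were -1.98 ± 0.29 (adjusted p = 0.00124) and -2.72 ± 0.30 (adjusted p = 2.23e-04). Without replicate 3 of the 1.5 h group Smad6 was called higher at 1.5 h, at 0.83, as for Smad5 in a fit that called 30% of all tested genes. From 1.5 to 3 h it dropped by 2.64 ± 0.30 on the log2 scale (adjusted p = 0.00173), the largest difference between these 2 times among the 10 genes.

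Smad7 (ENSRNOG00000018359), which blocks both the BMP and the TGF-β branch, had 6.02, 6.29 and 5.43 FPKM at 0 h, 5.43, 5.27 and 5.79 at 1.5 h, 2.85, 2.24 and 2 at 3 h and 2.64, 2.49 and 1.76 at 6 h. Its libraries at 1.5 h overlapped with the controls, and those at 3 and 6 h overlapped with each other and lay below both earlier groups. The changes were -1.04 ± 0.16 at 3 h (adjusted p = 0.00134) and -1.43 ± 0.16 at 6 h (adjusted p = 2.15e-04). Smad6 made up 40.5% ± 2.11 of the summed FPKM of the 2 inhibitory Smads at 0 h, 52.1% ± 7.19 at 1.5 h, 26.7% ± 8.05 at 3 h and 19.1% ± 7.26 at 6 h (SD, n = 3 each).

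The decoy receptor Bambi (ENSRNOG00000016066), which lacks the kinase of the type I receptors it resembles, was not called at any time. It had 18.5, 18.6 and 25.8 FPKM at 0 h, 17.0, 17.8 and 23.3 at 1.5 h, 27.9, 28.5 and 17.3 at 3 h and 13.4, 23.0 and 21.5 at 6 h. The 3 nearest libraries stood apart from the others of their groups in Bambi, higher at 1.5 h and lower at 3 and 6 h. The difference at 3 h was 0.54 ± 0.31 (adjusted p = 0.215, 95% interval -0.14 to 1.22), it was called at 0.74 without these libraries, as were 70.9% of all tested genes, and the value with only replicate 3 was -0.18.

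Bmpr1a (ENSRNOG00000052469), a type I receptor for Bmp2 and Bmp4, had the highest mean FPKM of the 10 genes in every group. It stood at 90.9, 80.3 and 100.2 FPKM at 0 h, at 98.7, 95.4 and 87.9 at 1.5 h, at 41.0, 45.3 and 49.0 at 3 h and at 25.001, 21.7 and 23.0 at 6 h. The libraries at 0 and 1.5 h overlapped, those at 3 h lay below all of them and those at 6 h lower again. It fell by 0.72 ± 0.11 at 3 h (log2 scale, adjusted p = 0.00164) and by 1.77 ± 0.11 at 6 h (adjusted p = 1.43e-05), where 23.2 ± 1.67 FPKM in treated cells stood against 90.5 ± 9.97 in control (SD, n = 3 each). From 3 to 6 h it dropped by a further 1.05 ± 0.11 (adjusted p = 0.00624), and the value with only the nearest library of each time was -1.01.

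The ligand Bmp2 (ENSRNOG00000071010) moved the other way. It had 3.04, 3.74 and 3.00 FPKM at 0 h, 4.20, 4.45 and 8.88 at 1.5 h, 12.1, 12.6 and 3.92 at 3 h and 9.61, 12.8 and 11.7 at 6 h. Replicate 3 at 3 h lay only just above the highest control, and replicate 3 at 1.5 h stood well above the other 2 of its group. The rise was 1.89 ± 0.47 at 3 h (adjusted p = 0.0200) and 2.01 ± 0.47 at 6 h (adjusted p = 0.00985), and 0.92 ± 0.47 at 1.5 h was not called (adjusted p = 0.283).

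The Bmp2 call at 3 h was lost with limma-voom on all 12 libraries, and it rested on few of them. It was also lost without any 1 of the controls (adjusted p = 0.0567 to 0.0753), without 3 h replicate 1 (adjusted p = 0.0799) and without 3 h replicate 2 (adjusted p = 0.0840). These fits without 1 library called 8.88% to 10.6% of all tested genes at 3 h, beside 21.4% with all libraries. With only replicate 3 of the 3 h group the Bmp2 change was 0.36. That library had 281 FPKM of mitosis markers, against 29.9 and 27.2 in the others, and the part of this difference in the Bmp2 level was not tested. The call at 6 h was kept in all 21 alternative fits, between 1.53 and 2.17.

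Bmp4 (ENSRNOG00000009694), a close relative of Bmp2, was the lowest of the 10 genes in mean FPKM in every group. It had 0.591, 1.33 and 0.412 FPKM at 0 h, 3.26, 2.35 and 0.565 at 1.5 h, 0.891, 0.565 and 0.665 at 3 h and 0.128, 0.425 and 0.421 at 6 h. Only replicates 1 and 2 at 1.5 h were above all controls. Against control it was not called, with 1.40 ± 0.71 at 1.5 h (adjusted p = 0.279), 0.16 ± 0.71 at 3 h (adjusted p = 0.882) and -1.04 ± 0.75 at 6 h (adjusted p = 0.304). Without replicate 3 of the 1.5 h group Bmp4 was called higher at 1.5 h, at 2.03, again beside 30% of all tested genes. In replicates 1 and 2 at 1.5 h the summed FPKM of 20 microglia markers was 280 and 285, against 4504 in replicate 3, and that of 12 fibroblast and meningeal markers 1470 and 1528, against 532; their part in the Bmp4 level was not tested.

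**Figure D3:**
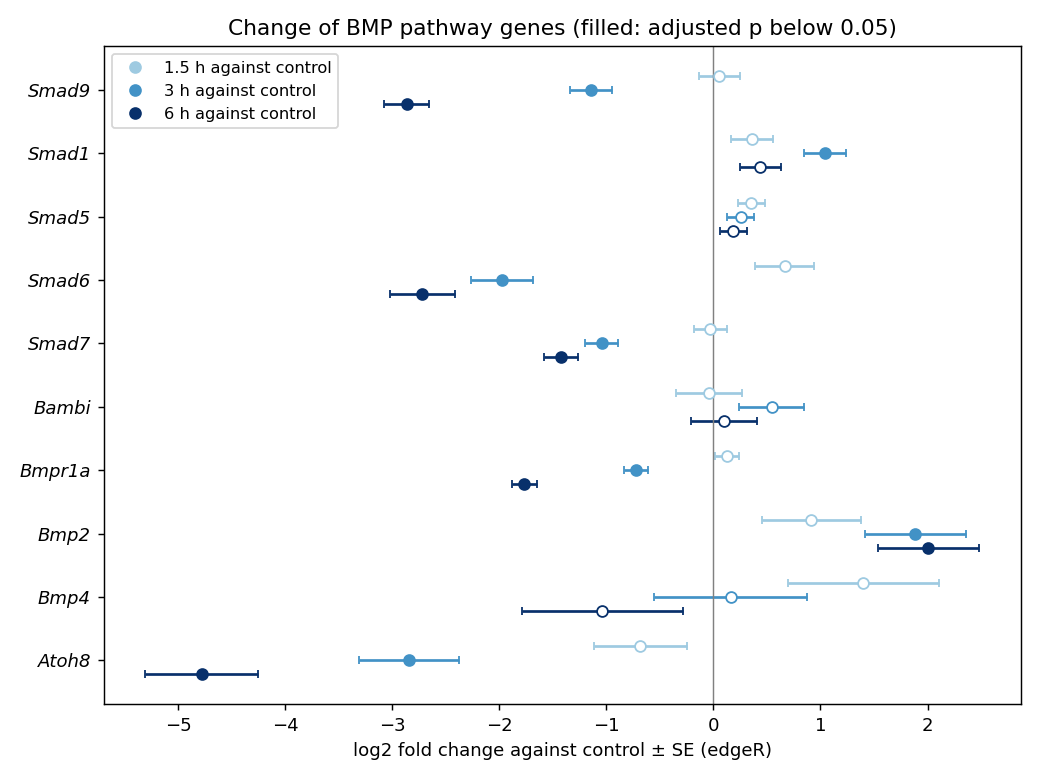
Log2 fold change against control (horizontal axis, edgeR estimate ± SE) of the 10 genes at 1.5, 3 and 6 h; filled points have an adjusted p below 0.05. Atoh8 reaches -4.78 and Smad9 -2.86 at 6 h, Bmp2 lies at 2.01, and no point at 1.5 h is filled.

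The order of the genes by mean FPKM changed with time. In control it ran Bmpr1a, Atoh8, Bambi, Smad5, Smad1, Smad9, Smad7, Smad6, Bmp2 and Bmp4, where Atoh8, Bambi and Smad5 overlapped with their neighbours in range, as did Smad6 and Bmp2, and the other neighbours did not. At 6 h it ran Bmpr1a, Smad5, Bambi, Smad1, Bmp2, Smad7, Smad9, Atoh8, Smad6 and Bmp4. The ranges of Smad5, Bambi and Smad1 overlapped there, as did those from Smad9 to Bmp4, each with the next. Bmp2 was thus number 9 in control and number 5 at 6 h, where its 9.61 to 12.8 FPKM lay above all libraries of Smad7, Smad9, Atoh8 and Smad6.

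Over the 12 libraries, the 6 genes with the highest Pearson correlation of log2 CPM (counts scaled to depth) with Smad9, of 8095 genes with a mean of at least 5 CPM, were Sfpq (r = 0.993), Ehmt2 (0.991), Srsf6 (0.988), Bmpr1a (0.985), Ccdc47 (0.983) and Prxl2c (0.982). Sfpq and Srsf6 encode splicing factors and Ehmt2 a histone methyltransferase. Bmpr1a was thus the fourth closest to Smad9, and Atoh8 followed as number 67 (r = 0.935). The 6 closest to Atoh8 were Hey1 (0.984), Acin1 (0.983), Brms1l (0.979), Ppp1r12c (0.973), Ppp1cc (0.967) and Cxcl12 (0.963). Hey1, a repressor shared by the BMP and Notch pathways, had 19.5 FPKM at 0 h, 14.1 at 1.5 h, 5.66 at 3 h and 4.07 at 6 h (means of 3). Smad7 was number 14 with Atoh8 (r = 0.946) and Smad9 number 27. All points share the 4 time groups and their libraries, so these values describe the common time course and carry no p.

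The rest of the pathway was described from 5 lists of 71 genes in all, of which 48 were in the table and 47 tested, and which hold the 10 genes above. The lists are ligands, receptors, secreted antagonists, Smads with other intracellular regulators, and target genes; Smad6, Smad7, Smad9 and Bambi stand in both of the last 2. The lists' counts at 1.5 h depended on 1 library, as for the target genes, of which 1 was called higher with all libraries and 6 without replicate 3 of the 1.5 h group, a fit in which the calls over all tested genes grew likewise (30% against 3.32% with all libraries). Of the 47, 1 was called at 1.5 h, 15 at 3 h (6 higher, 9 lower) and 23 at 6 h (6 higher, 17 lower). Of the 37 outside the 10 genes, 4 rose and 4 fell at 3 h, in all 21.6% and near the 21.4% of all tested genes. At 6 h 5 of the 37 rose and 12 fell, in all 45.9%, beside 30.5% of all tested genes.

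Target genes made up 8 of the 9 falls at 3 h and 10 of the 17 at 6 h. Of 16 tested targets, 8 fell and 2 rose at 3 h and 10 fell and 2 rose at 6 h, and over all 21 alternative fits the falls numbered 8 to 9 and 9 to 11. Their median log2 change was -0.71 at 3 h and -1.44 at 6 h, beside medians of -0.031 and -0.025 over all tested genes. In all, 62.5% of the targets were called at 3 h and 75% at 6 h, beside 21.4% and 30.5% of all tested genes. Smad6, Smad7, Smad9, Atoh8 and Bambi are among these targets, so the counts and medians partly repeat the 10 genes and give no separate support. The targets outside the 10 genes ran from -2.18 (Id3) to 2.09 (Tbx3) at 3 h, with Hey2 (-0.25, not called) in the middle. At 6 h they ran from -2.48 (Id2) to 1.65 (Tbx3), with Dlx2 (-1.28) in the middle. Besides Smad6, Smad7, Smad9 and Atoh8 the targets that fell were Id1, Id2, Id3 and Hey1, and at 6 h also Id4 and Dlx2. The Id proteins hold basic helix-loop-helix factors off DNA. The falls of Id1, Id2, Id3, Id4 and Hey1 were called in all 21 alternative fits, and that of Dlx2 at 6 h ended when any 1 of the controls, 6 h replicate 2 or 6 h replicate 3 was left out (adjusted p of up to 0.117). With limma-voom on all libraries the Dlx2 call was lost too.

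Of these, Id1, the classical early target of BMP Smads, had 129.5, 129.1 and 124.4 FPKM at 0 h, 193, 185 and 156 at 1.5 h, 40.9, 32.5 and 31.0 at 3 h and 42.4, 30.8 and 27.4 at 6 h. At 1.5 h Id1 was not called (0.55 ± 0.17, adjusted p = 0.111). Its 3 libraries there lay above the controls, as for Smad6, a trait whose share over all tested genes is not given. All later ones lay below the controls, as for 36.9% of all tested genes at 3 h and 34.3% at 6 h. Id4 behaved otherwise, with a change of -0.14 ± 0.25 at 3 h (not called) and -1.45 ± 0.26 at 6 h (adjusted p = 0.00247), and it was lower at 6 h than at 3 h as well (-1.31 ± 0.26, adjusted p = 0.0245).

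The 2 targets that rose were Tbx3 and Runx2. Tbx3, a T-box repressor, was the only one of the 47 called at 1.5 h, at 2.75, 2.22 and 3.41 FPKM against 0.980, 0.674 and 1.11 in control (1.68 ± 0.24, adjusted p = 0.00309), and it remained higher at 3 h (2.09 ± 0.24) and 6 h (1.65 ± 0.24). Tbx3 was called in all 21 alternative fits at each time. Runx2, a regulator of bone formation, rose by 1.52 ± 0.41 at 3 h (adjusted p = 0.0265) and by 1.23 ± 0.41 at 6 h (adjusted p = 0.0432), where its replicate 1, at 1.06 FPKM, lay within the controls' 0.732 to 1.22. Of 21 alternative fits, 8 ended the Runx2 call at 3 h (0.64 to 1.65, adjusted p of up to 0.0901) and 14 that at 6 h (0.17 to 1.56, adjusted p of up to 0.706). Among these were the fits without any 1 library except 3 h replicate 3 or 6 h replicate 1, and at 6 h also upper-quartile, library-size and FPKM depth scaling.

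Of 5 ligands tested, Bmp2 and Bmp6 rose at 3 h, and at 6 h Bmp2 rose and Gdf10 fell. At each time 40% of the 5 were called, beside 21.4% of all tested genes at 3 h and 30.5% at 6 h. Bmp6, best known for its role in iron regulation, was the most abundant ligand in the table, with 60.2, 60.4 and 40.6 FPKM at 3 h against 43.0, 37.8 and 38.3 in control (0.75 ± 0.24, adjusted p = 0.0494), and the library nearest to the controls lay within their range. The Bmp6 call was kept in 5 of 21 alternative fits (0.13 to 0.92, adjusted p of up to 0.516), and of the fits without 1 library only in that without replicate 3 of the 3 h group. Gdf10 stayed below 1 FPKM in all libraries, and its call was lost in 11 of 20 alternative fits, those without any 1 library included (-2.45 to -0.25, adjusted p of up to 0.126).

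Of 8 receptors and co-receptors tested, the co-receptor Tgfbr3 rose (0.90 ± 0.27, adjusted p = 0.0384) and Bmpr1a fell at 3 h, a share near the 21.4% of all tested genes. The Tgfbr3 call was lost in 13 of 21 alternative fits (0.21 to 1.09, adjusted p of up to 0.469), among them those leaving out any 1 library except 3 h replicate 3. At 6 h Acvr1, another BMP type I receptor, rose and Bmpr1a and the type II receptor Bmpr2 fell, 3 of 8 beside 30.5% of all tested genes. Acvr1 had 10.7, 11.5 and 11.8 FPKM at 6 h against 7.15, 6.78 and 7.37 in control (0.87 ± 0.17, adjusted p = 0.00342). Bmpr2 had 13.3, 13.3 and 13.011 FPKM at 6 h, against 20.017, 18.5 and 26.0 in control (-0.50 ± 0.14, adjusted p = 0.0220), and its call was lost without control replicate 3 (adjusted p = 0.0851).

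Of 8 secreted antagonists tested, Nog and Bmper fell at 6 h, 25% beside 30.5% of all tested genes. Nog encodes noggin, which binds BMP ligands outside the cell, and had 0.792, 0.588 and 0.977 FPKM at 6 h against 6.22, 6.75 and 8.58 in control (-2.99 ± 0.54, adjusted p = 0.00248). At 1.5 h its replicates 1 and 2 were at 13.4 and 17.1 FPKM and replicate 3 at 3.99, on either side of the controls. Bmper, which binds BMP ligands too, fell by 1.61 ± 0.43 on the log2 scale at 6 h (adjusted p = 0.0180), a call that leaving out control replicate 3, 6 h replicate 2 or 6 h replicate 3 ended (adjusted p of up to 0.0738). The Bmper call was lost with limma-voom on all libraries too. At 3 h edgeR called 0 of the 8, beside 21.4% of all tested genes, with 2 (Nog and Fst) at an unadjusted p below 0.05. DESeq2 called 1 higher and 1 lower, beside 30% of all genes it tested. Without the 3 nearest libraries 4 were higher and 1 lower, 5 of 8 in a fit that called 70.9% of all tested genes. Fst, which encodes the ligand trap follistatin, was above the controls in replicates 1 and 2 and close to them in replicate 3, with 20.5, 23.0 and 5.81 FPKM at 3 h against 4.799 to 5.73 in control.

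Of 14 Smads and intracellular regulators tested, 1 rose and 3 fell at 3 h, all of them among the 10 genes, and 2 rose and 5 fell at 6 h. These are 28.6% at 3 h and 50% at 6 h, beside 21.4% and 30.5% of all tested genes. The risers at 6 h were Smurf1, a ubiquitin ligase for BMP Smads (0.94 ± 0.14, adjusted p = 9.93e-04), and Tab1, a partner of the kinase Map3k7 (0.73 ± 0.16, adjusted p = 0.00753). Ski and Skil, repressors that bind Smads, fell by 0.35 ± 0.11 and 0.53 ± 0.17 at 6 h on the log2 scale (adjusted p = 0.0325 and 0.0396), but leaving out control replicate 2 or 3 or 6 h replicate 1 ended the Ski call, and any library except 6 h replicate 1 the Skil call (adjusted p of up to 0.112 for Ski and 0.144 for Skil). Leaving out 6 h replicate 3 ended the Tab1 call (adjusted p = 0.0504), as did scaling by library size alone on all 12 libraries (adjusted p = 0.0583). Of the TGF-β branch Smad3 alone was in the table, and it rose, with 18.5, 17.9 and 20.7 FPKM at 3 h and 18.1, 22.6 and 21.5 at 6 h, against 10.0, 11.8 and 9.42 in control (1.16 ± 0.16 and 1.201 ± 0.16, adjusted p = 9.87e-04 and 5.57e-04). Smad3 and Smad9, receptor-regulated Smads of the TGF-β and the BMP branch, thus changed in opposite directions at both times. Smad4, their common partner, was not in the table.

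**Figure D4:**
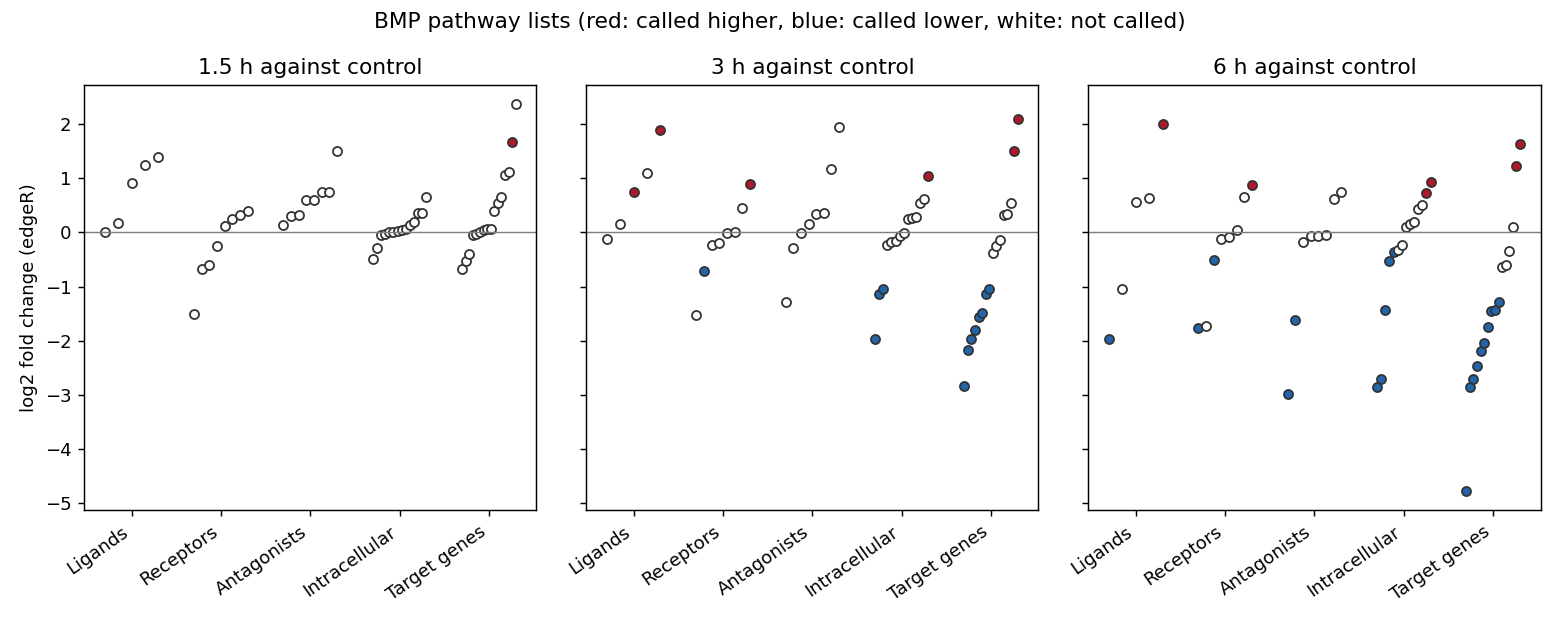
Log2 fold change against control (vertical axis, edgeR) of every tested gene of the 5 BMP pathway lists at 1.5, 3 and 6 h, with called genes in red (higher) and blue (lower) and genes in 2 lists shown in both. Among the 16 target genes 1, 2 and 2 are red and 0, 8 and 10 blue at 1.5, 3 and 6 h.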

How the data were processed

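For every gene the authors deposited an expected count, which need not be whole, and the FPKM in each library, per the file headers. The submitters' processing notes name StringTie 2.2.1; which aligner, build and annotation were used is not given in the sources used here. Per the labels' protocols, TRIzol was used for the RNA and the NEBNext Ultra kit for the libraries. Of the count values 9.49% were not whole, in 1343 genes, so counts were rounded for the count tests. The table holds part of a rat's genes, and adjusted p-values and scaling refer to these genes.

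The count test was that of edgeR 4.0.16 under R 4.3.3 (filterByExpr, which removed 230 of 9721 genes, TMM scaling, robust quasi-likelihood test, 1 fit to all 12 libraries with group as the only term); the prior count behind log2 fold changes was 0.125, and the procedure was tested on simulated data. Alternatives were DESeq2 1.42.0, limma 3.58.1 on counts and on log2(FPKM + 0.1) or log2(FPKM + 1), other scalings and filters, a replicate block, fits of 2 groups and leaving out libraries. Scaling by the depth that count and FPKM imply, and fits of the controls with only the 3 treated libraries nearest to them, were chosen after seeing the data. The last have 1 library per treated group and take the spread from the controls alone, so each lone library is assumed to vary as the controls do, and their calls among the alternatives rest on that assumption. The 3 nearest libraries were themselves picked by their likeness to the controls in these data. Leaving them out therefore favours calls against control, with 59.2% of all tested genes called at 1.5 h beside 3.32% with all libraries. The rule for named genes took all 10 genes, the called members of the lists and the 6 genes most correlated with Smad9 and with Atoh8. The members and lists were chosen with earlier results of these data known. Start-site windows came from a RefSeq table (GRCr8) by symbol and were used for sequence only. Where a symbol stood on more than 1 line (58 symbols), the line with the highest mean count was used.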

Additional observations from a re-analysis of the deposited data

Results flagged for a closer look

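Of the changes with time, 14 differed between treated times by a test of the difference itself (edgeR, adjusted over all tested genes). From 1.5 to 3 h, where 20.3% of all tested genes were called, the log2 differences were -1.20 for Smad9, -2.16 for Atoh8, -2.64 for Smad6, -1.02 for Smad7 and -0.85 for Bmpr1a, and 0.69 for Smad1. The Smad1 difference was lost without replicate 1 or 2 of the 1.5 h or of the 3 h group (adjusted p = 0.0962 to 0.136) and with the replicate block (0.68, adjusted p = 0.0562). In the fit of the 2 groups only, which called 0.823% of all tested genes, it was lost too. So were the differences of Smad9, Smad7, Atoh8 and Bmpr1a (adjusted p = 0.0508 to 0.0711). From 3 to 6 h, Smad9 (-1.72) and Bmpr1a (-1.05) were lower at 6 h. At 6 h against 1.5 h, where 37.6% of all tested genes were called, the differences were -2.92 for Smad9, -4.10 for Atoh8, -3.38 for Smad6, -1.40 for Smad7, -1.89 for Bmpr1a and -2.44 for Bmp4. The Bmp4 difference (adjusted p = 0.0277) was lost without replicate 1 or 2 of the 1.5 h group or any replicate of the 6 h group (adjusted p = 0.0519 to 0.102). It was lost with limma-voom and in the fit of the 2 groups only as well.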

How the results depend on the processing

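The 27 called differences of the 10 genes were recomputed under 21 alternatives each: of 567 values, 536 kept direction and call, 31 kept the direction but not the call, and 0 reversed. The number of the 10 genes called at 1.5 h against control was 7 without the 3 treated libraries nearest to the controls, where 59.2% of all tested genes were called, 2 with only these (3.67%), and 0 to 3 leaving out 1 library at a time (3 without replicate 3 of the 1.5 h group, 30%). At 3 h against 1.5 h it was 1 in a fit of the 2 groups only (0.823%) and 4 to 8 leaving out 1 library; at 6 h against 3 h it was 6 without the 3 nearest libraries (34.1%), 1 with only these (0.147%, 1 library against 1, spread from the controls), and 2 to 5 leaving out 1 library (5 without replicate 3 of the 3 h group, 8.25%). The cause was not tested. Scaling by library size alone shifted the median of all genes by -0.31 at 3 h and -0.22 at 6 h, and 25.6% of called genes were then higher at 3 h. The 10 genes' counts of calls against control were the same under it.

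Signs reversed only for differences that were not called. At 1.5 h, Smad9 was at -0.018 under library size and -0.017 under FPKM depth scaling, -0.061 and -0.052 with limma on log2(FPKM + 0.1) and log2(FPKM + 1) (this pseudocount of 1 also without a filter), -0.51 with only the nearest libraries, and -0.095 to 0.27 leaving out 1 library. Smad7 was at 0.0090 under DESeq2 size factors and 0.0083 in DESeq2. Bambi was at 0.24 with only the nearest libraries and at -0.20 to 0.14 leaving out 1 library, and Bmp4 at -0.83 with only the nearest. At 3 h, Smad5 was at -0.066 under library size and -0.037 under FPKM depth scaling, and Bambi at -0.18 with only the nearest libraries. Bmp4 was at -0.17 and -0.14 under these scalings, -0.0014 and -0.029 with limma on log2(FPKM + 0.1) and log2(FPKM + 1) (this pseudocount of 1 also without a filter), -0.15 with only the nearest libraries, and -0.14 to 0.79 leaving out 1 library. At 6 h, Smad1 was at -0.0015 with only the nearest library. Smad5 was at -0.042, -0.016 and -0.026 under library size and FPKM depth scaling and with only the nearest. Bambi was at -0.15 and -0.12 under these scalings, -0.14 with limma on log2(FPKM + 0.1) and on log2(FPKM + 1) (this pseudocount of 1 also without a filter), -0.59 with only the nearest, and -0.16 to 0.35 leaving out 1 library.

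The groups share replicate numbers, and these did not pair the libraries across all 4 groups. Deviations of same-numbered libraries correlated at 0.20 to 0.45 between 1.5 h and control and at 0.17 to 0.22 between 3 and 1.5 h, over 0.1 in all 3 pairs of each, but not in all pairs of any other 2 groups (-0.66 to 0.60), and 6 of 12 libraries were closest to their own number. With the replicate block 25 of the 27 calls were kept, and the number called was 0, 7 and 6 at 1.5, 3 and 6 h against control, 5 at 3 h against 1.5 h, 2 at 6 h against 3 h and 5 at 6 h against 1.5 h. The 2 calls lost were Smad1 at 3 h against 1.5 h (0.68) and Bmp4 at 6 h against 1.5 h (-2.22). All libraries of a group differed beyond sampling noise, and counts of Bmp4 and of Atoh8 at 6 h, at 0.428 to 4.34 CPM, limit their precision.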
